A study of Mus musculus with 18 samples.

Results

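Collagens and the enzymes that crosslink them were followed through MC38 tumours grown in the livers of mice kept on different diets (MC38 is a colon carcinoma line of the mouse). The set holds 50 of the 25005 genes of the series: every protein-coding gene whose symbol has the form of a collagen chain, 5 lysyl oxidases (Lox and Loxl1 to Loxl4) and 3 lysyl hydroxylases (Plod1 to Plod3). By class there were 11 fibrillar collagens, 8 collagens of basement membranes (the chains of type IV, with Col15a1 and Col18a1) and 23 other collagens. All 50 were listed in both deposited tables.

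MC38 cells were injected into the spleen, and RNA was taken from the tumours that formed in the liver. The HFD group (n = 5) and the LFD group (n = 5) are tumours of wild-type mice on a high-fat or on a low-fat diet, in 1 table. The second table holds tumours labelled shYap (n = 4) and tumours labelled shCon (n = 4), read as a hairpin against Yap and a control hairpin. Both were grown in wild-type mice on the high-fat diet, and the labels also give the hairpin as the genotype. The labels give no age or sex, no hairpin sequence and no number of clones. Nor do they say if each library of a group is from its own animal, so p-values measure the spread between these libraries, which may be technical. RNA of mouse tumour cells and of mouse host cells cannot be separated in these counts.

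Collagens are built from chains that wind into triple helices. Fibrillar collagens, chiefly types I, III and V in liver, pack into fibres, while type IV forms the sheet-like network under epithelium and around vessels, and type VI forms beaded filaments close to cells. Lysyl hydroxylases modify lysines of the new chains inside the cell, and lysyl oxidases oxidise lysines outside it, which gives the crosslinks that stiffen a fibre. In injured liver and in tumours most fibrillar collagen is made by fibroblasts and activated stellate cells, and hepatocytes make little of it.

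The start-site windows of 4 members are printed here, because Col3a1 had the highest level per kilobase in HFD, Col1a2 and Col16a1 had large differences between the diets, and Col4a2 shares its start region with Col4a1. Each runs from 250 bases before to 50 bases after the RefSeq start (build GRCm38.p6), 5′ to 3′. Capitals mark the letters GGAATG (bound by TEAD factors, the partners of YAP), CCAAT and TATAAA, each on either strand.
Col3a1, chr1:45311288-45311587, plus strand: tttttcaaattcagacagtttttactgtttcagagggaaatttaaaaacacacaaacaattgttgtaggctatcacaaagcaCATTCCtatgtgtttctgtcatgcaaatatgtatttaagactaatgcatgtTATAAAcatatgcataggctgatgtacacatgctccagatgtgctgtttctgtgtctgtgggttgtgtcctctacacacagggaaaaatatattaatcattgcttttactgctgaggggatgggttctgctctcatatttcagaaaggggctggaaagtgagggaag
Col1a2, chr6:4505368-4505667, plus strand: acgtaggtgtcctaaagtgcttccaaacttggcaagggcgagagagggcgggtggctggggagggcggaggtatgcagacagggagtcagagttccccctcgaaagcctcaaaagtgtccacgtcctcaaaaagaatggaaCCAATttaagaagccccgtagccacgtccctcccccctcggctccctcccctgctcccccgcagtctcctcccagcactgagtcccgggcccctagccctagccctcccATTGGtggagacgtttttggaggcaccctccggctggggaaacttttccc
Col16a1, chr4:130047590-130047889, plus strand: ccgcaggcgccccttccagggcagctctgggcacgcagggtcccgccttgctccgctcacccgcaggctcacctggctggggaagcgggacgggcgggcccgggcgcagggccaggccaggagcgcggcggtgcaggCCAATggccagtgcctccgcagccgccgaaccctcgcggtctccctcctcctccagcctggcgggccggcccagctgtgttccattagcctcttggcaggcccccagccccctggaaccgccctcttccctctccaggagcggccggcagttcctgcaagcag
Col4a2, chr8:11312555-11312854, plus strand: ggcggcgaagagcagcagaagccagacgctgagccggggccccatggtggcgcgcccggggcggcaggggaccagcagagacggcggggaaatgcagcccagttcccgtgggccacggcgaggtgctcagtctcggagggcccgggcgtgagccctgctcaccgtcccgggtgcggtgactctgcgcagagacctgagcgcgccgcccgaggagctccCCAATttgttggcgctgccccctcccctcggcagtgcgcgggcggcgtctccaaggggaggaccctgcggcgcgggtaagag
The Col3a1 window held CATTCC, which is GGAATG on the other strand, from base -168 relative to the start and TATAAA from base -117. The Col1a2 window held CCAAT at -109 and again, on the other strand, at 1, the Col16a1 window held CCAAT at -113, and the Col4a2 window held it at -32. For Col1a2 the RefSeq start lies inside the gene interval of the deposited tables. RefSeq gave 38 windows for 36 of the 50 members, and GGAATG stood in 5 of them (13.2%), against 14.7% of all 32851 windows. CCAAT stood in 13 (34.2%, against 37.4% of all windows) and TATAAA in 6 (15.8%, against 13.6%). Each share was close to that of all windows, and a match of letters is a description, not a binding site. Type IV collagen genes lie in head-to-head pairs. The 5′ ends of Col4a1 and Col4a2 overlap by 22 bases, and their windows share 78 bases (chr8:11312777-11312854), while Col4a3 and Col4a4 start 71 bases apart and Col4a5 and Col4a6 1308 bases apart.

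Levels are given as CPM, counts scaled to the usual fixed total of a library. Total estimated counts were 17766207 to 18474191 in the HFD and LFD libraries and 17207214 to 21309950 in the shYap and shCon libraries. The tables were normalised separately, so no test was run across them. Of the hepatocyte markers, 15 of 15 were called lower in HFD, against 21.6% of all genes. Their summed level was 538.4 to 4083 CPM in HFD libraries, against 11460 to 114900 CPM in LFD libraries. Albumin (Alb) alone reached 167.9 to 1889 CPM in HFD libraries, against 5492 to 51490 CPM in LFD libraries, where replicates 1 and 5 held the most. Xist, an RNA made from the inactive X chromosome of females, was at 0.0505 to 0.293 CPM in HFD libraries, against 72.9 to 135 CPM in LFD libraries, so a difference in the animals' sex cannot be told apart from the diet. Among HFD libraries, replicates 1, 2 and 5 lay close to each other (SD of log2 differences over 31 members 0.19 to 0.30), as did replicates 3 and 4 (0.27), against 0.50 to 0.82 across these sets. An alternative with replicates 1 and 2 summed, and replicates 3 and 4 summed, is called here the close HFD pairs summed. It left replicate 5 apart, although replicates 2 and 5 were the closest pair, so a further one, chosen after seeing the data, sums replicates 1, 2 and 5 and replicates 3 and 4, and is called the close HFD sets summed. Colon epithelium markers were sparse: of the 4 that could be tested, Krt8 and Krt18 carried nearly all of the summed 189.6 to 353.4 CPM in HFD and 58.8 to 514.3 CPM in LFD libraries.

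Levels per kilobase of transcript put the same genes on top in every group. Col3a1 ranked first in HFD with 905 ± 101 CPM per kilobase, before Col6a1 with 572 ± 40.2 and Col6a2 with 563 ± 47.5 (SD, n = 5), and these last neighbours did not differ beyond their spread. After them came Col1a1 with 160.3 ± 33.6 and Col18a1 with 141 ± 9.69, which overlapped as well. In LFD, Col3a1 (479 ± 135), Col6a2 (467 ± 188) and Col6a1 (458 ± 169) could not be ordered, and Col18a1 (126 ± 61.3) and Col1a1 (114 ± 51.6) followed. The order was Col3a1, Col6a2, Col6a1 and Col1a1 in libraries labelled shYap (417 ± 190, 385 ± 223, 341 ± 215 and 151 ± 30.3 CPM per kilobase). In shCon it was Col6a2, Col3a1, Col6a1 and Col1a1 (544 ± 70.5, 506 ± 46.0, 426 ± 64.4 and 241 ± 27.0 CPM per kilobase; SD, n = 4). Across the libraries of a table, 15 members averaged at least 100 CPM in the HFD and LFD table and 14 in the other, while 12 and 16 averaged less than 1 CPM.

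Summed over the 50 members, HFD libraries held 14760, 15820, 16100, 16170 and 17820 CPM, and LFD libraries held 12040, 13280, 12280, 10140 and 7362 CPM. Every HFD library lay above every LFD library, and the lowest sum was in LFD replicate 5, the library with the most Alb. As a share of all counts the members took 1.77% ± 0.13 in HFD and 1.04% ± 0.34 in LFD (SD, n = 5 each). Fibrillar collagens summed to 7679 ± 779 CPM in HFD and 4433 ± 1205 CPM in LFD, basement-membrane collagens to 2234 ± 80.2 and 1702 ± 234, and other collagens to 5495 ± 376 and 4401 ± 1498. Lysyl oxidases summed to 204 ± 22.9 CPM in HFD and 137 ± 28.7 CPM in LFD, and lysyl hydroxylases to 520 ± 23.7 and 349 ± 43.7. Libraries labelled shYap spread widely, with sums of 6209, 8415, 15380 and 12530 CPM, against 12630, 13400, 13090 and 11590 CPM in shCon, so those groups overlapped. A bulk sum cannot tell fewer collagen-making cells from less collagen RNA per cell.

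**Figure D1:**
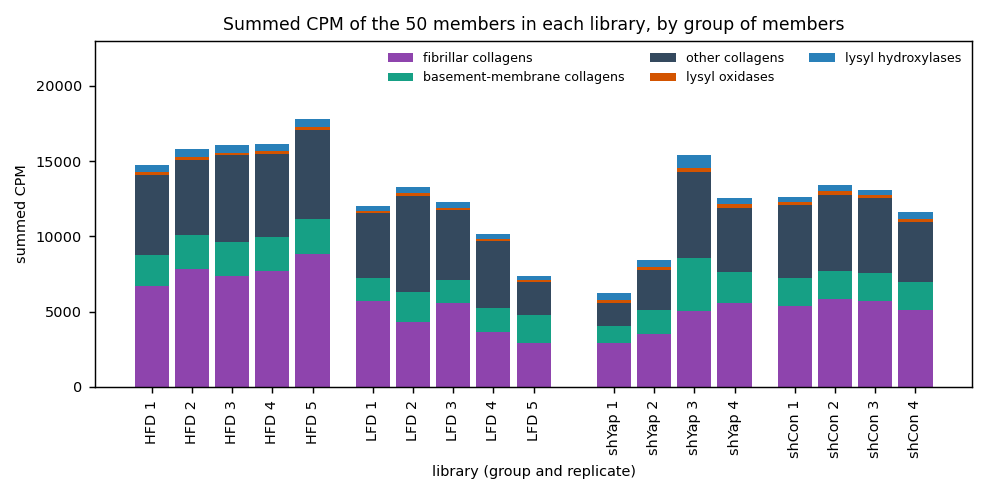
Summed CPM of the 50 members (vertical axis) in each library (horizontal axis), with the share of each class of member stacked by colour. The 5 HFD bars reach 14760 to 17820 CPM, all above the LFD bars at 7362 to 13280 CPM, and the bars labelled shYap range from 6209 to 15380 CPM, around the shCon bars.

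The diets were compared first, to see how tumours grown under high-fat feeding differed from those grown under low-fat feeding. Type III collagen, one chain of type I, one chain of type IV and all 3 lysyl hydroxylases were higher in HFD, while the most abundant chains of type VI were not called. Tested with edgeR's quasi-likelihood test and Benjamini-Hochberg adjustment over 16340 genes, 14 of the 41 members that passed the count filter rose (34.1%, against 19.4% of all genes tested) and 2 fell (4.88%, against 21.6% of all genes). The median log2 fold change of these 41 members was 0.44, and that of all genes was -0.00. Of the 41, 35 were positive (85.4%, against 49.8% of all genes). All members were measured in the same libraries, so signs here and below are not separate observations. Groups did not overlap for 12 members that were higher and 1 that was lower, against 15.8% and 14.8% of all genes. At an unadjusted p under 0.05, 19 members were higher, against 24% of all genes, and 2 were lower, against 25.9%. With the close HFD pairs summed, 10 of 42 members rose (23.8%, against 12.1% of all genes in that fit) and 1 fell (2.38%, against 12.9%). With the close HFD sets summed, which leaves 2 HFD values, 5 of 44 rose (11.4%, against 3.6% of all genes in that fit), namely Col4a5, Col11a1, Col16a1, Col17a1 and Loxl1. In that fit Col3a1 (log2 fold change 0.95, adjusted p = 0.092) and Col1a2 (1.42, adjusted p = 0.136) missed the threshold, as did Col6a3 (0.54, adjusted p = 0.128), Col8a1, Col20a1, Loxl4 and all 3 lysyl hydroxylases (adjusted p = 0.0639 for Plod1, 0.0781 for Plod2 and 0.157 for Plod3). Neither of the members that fell kept its call there (Col6a4 -1.96, adjusted p = 0.0781, and Col27a1 -1.52, adjusted p = 0.219), beside 2.42% of all genes called lower. The 9 members beside the 41 had at most 26 counts in any library and were too low to test with all libraries kept apart. Col11a1 and Col17a1 passed the count filter only through their HFD libraries. Their calls, among the 14 and again among the 5, are therefore no added support.

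**Figure D2:**
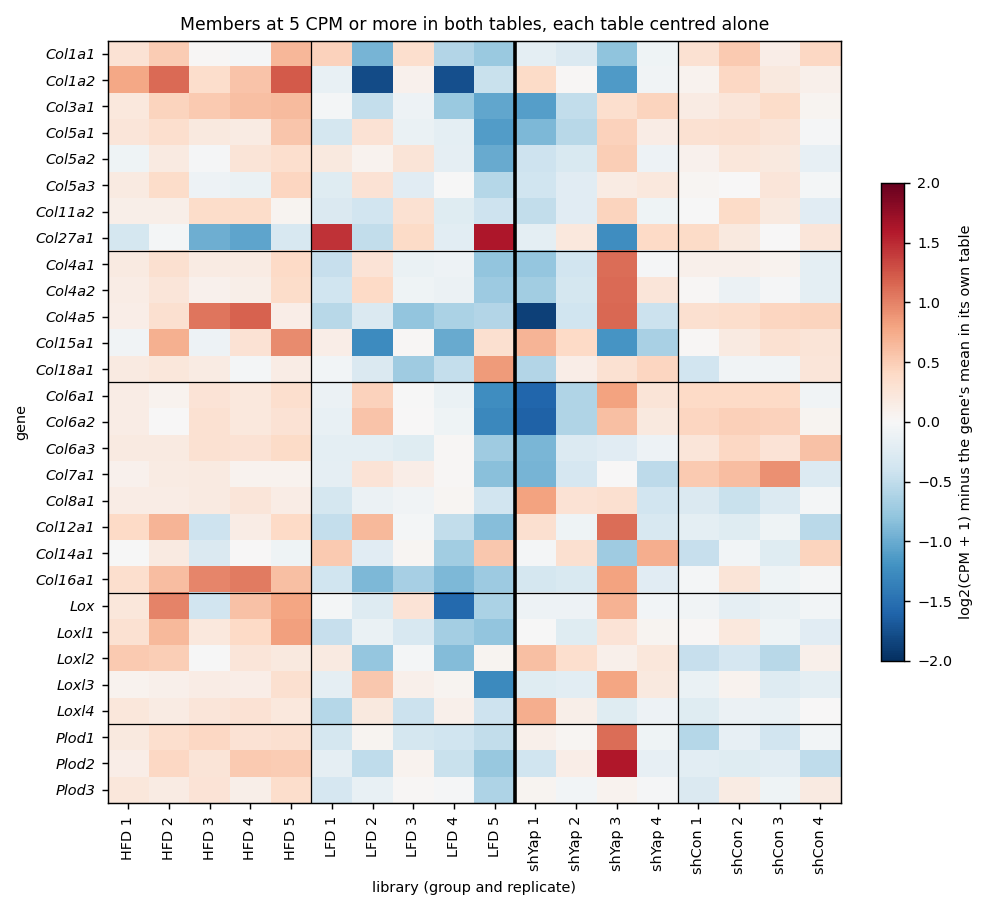
Members at 5 CPM or more in both tables (rows) in each library (columns), as log2(CPM + 1) minus the gene's mean in its own table, red above and blue below. Most rows are red in HFD and blue in LFD replicate 5, Col27a1 is red in LFD replicates 1 and 5, and for Col4a1, Col4a2, Col4a5, Col6a1 and Col6a2 replicate 1 labelled shYap is blue and replicate 3 red, while both are blue for Col6a3.

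Fibrillar collagens: 3 of the 10 tested rose (30.0%, against 19.4% of all genes) and 1 fell (10.0%, against 21.6%), with a median log2 fold change of 0.46. Col3a1, the chain of type III collagen (chromosome 1, 45311538 to 45349706, plus strand; all gene positions are those of build GRCm38), had 4142, 4896, 5137, 5451 and 5554 CPM in the HFD libraries, against 3496, 2594, 3338, 2150 and 1741 CPM in the LFD libraries. The lowest HFD library lay above the highest LFD library, and Col3a1 rose with a log2 fold change of 0.92 ± 0.19 (adjusted p = 0.0043), where the value after ± is here and below the standard error of the fold change. Col1a2, the second chain of type I collagen (chromosome 6, 4504814 to 4541544, plus strand), had 413, 527, 306, 357 and 567 CPM in the HFD libraries, against 217, 68.9, 256, 70.5 and 176 CPM in the LFD libraries. These groups did not overlap, and Col1a2 rose with a log2 fold change of 1.46 ± 0.39 (adjusted p = 0.0142). The partner chain Col1a1 (chromosome 11, 94936224 to 94953042, plus strand) had 930.4, 1083, 773, 752 and 1213 CPM in the HFD libraries, against 1052, 401, 958, 507 and 456 CPM in the LFD libraries. LFD replicates 1 and 3 were as high as the HFD libraries, and the log2 fold change of Col1a1, 0.49 ± 0.29 (adjusted p = 0.195), was not called.

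Col27a1, a fibrillar collagen known from cartilage (chromosome 4, 63214004 to 63334991, plus strand), had 5.23, 6.77, 3.02, 2.82 and 5.38 CPM in the HFD libraries, against 20.7, 4.66, 9.37, 5.87 and 23.3 CPM in the LFD libraries. It fell with a log2 fold change of -1.45 ± 0.48 (adjusted p = 0.0341), but the high values were those of LFD replicates 1 and 5, the libraries richest in Alb. Without both, its log2 fold change was -0.49 and it was no longer called (adjusted p = 0.252). Col11a1, a minor fibrillar chain, was low, at 3.04, 3.74, 1.56, 1.36 and 5.97 CPM in the HFD libraries, against 0.412, 0.259, 0.327, 0.419 and 0 CPM in the LFD libraries. It rose with a log2 fold change of 3.39 ± 0.57 (adjusted p = 0.00161), which rests on 27 to 122 counts per HFD library and 0 to 8 per LFD library. Only the HFD libraries carried Col11a1 through the count filter. The type V chains and the remaining fibrillar chains were not called. Col5a1, which regulates the diameter of fibrils, had a log2 fold change of 0.55 ± 0.21 (adjusted p = 0.0632), Col5a2 0.21, Col5a3 0.30, Col11a2 0.43 and Col24a1 -0.42. Without LFD replicate 5 Col5a1 was called higher (0.41, adjusted p = 0.0336), and so it was without LFD replicate 2 (0.71, adjusted p = 0.0149) and with DESeq2 (0.54, adjusted p = 0.0438). Col11a2 was called higher with upper-quartile factors (0.50, adjusted p = 0.0462), with the replicate block (0.45, adjusted p = 0.0435) and without LFD replicate 3 (0.60, adjusted p = 0.00466). Col5a3 was called higher without LFD replicate 2 (0.42, adjusted p = 0.049), and Col24a1 lower without LFD replicate 5 (-0.61, adjusted p = 0.0256).

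Basement-membrane collagens: 1 of 6 tested rose (16.7%, close to the 19.4% of all genes), none fell (against 21.6%), and the median log2 fold change was 0.47. Col4a5, a type IV chain of specialised basement membranes (chromosome X, 141475385 to 141689234, plus strand), had 168, 194, 326, 351 and 169.9 CPM in the HFD libraries, against 105, 126, 89.2, 99.2 and 102 CPM in the LFD libraries. HFD replicates 3 and 4 were the highest, the groups did not overlap, and Col4a5 rose with a log2 fold change of 1.21 ± 0.23 (adjusted p = 0.00264). Its head-to-head neighbour Col4a6 stood at 1.40 CPM in HFD against 0.981 CPM in LFD and was not called, with a log2 fold change of 0.50 ± 0.33 (adjusted p = 0.256). Both genes lie on the X chromosome, and Xist differed between the same groups. Col4a1, a chain of the type IV collagen found in nearly all basement membranes (chromosome 8, 11198423 to 11312826, minus strand), had 763, 842, 757, 757 and 885 CPM in the HFD libraries, against 489, 817, 614, 629.8 and 389 CPM in the LFD libraries. LFD replicate 2 was as high as HFD libraries, and the log2 fold change of Col4a1, 0.45 ± 0.17 (adjusted p = 0.0623), was not called.

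Without LFD replicate 2, Col4a1 was called higher, at 0.60 (adjusted p = 0.00943), and so was its partner Col4a2, at 0.51 (adjusted p = 0.0144). DESeq2 called Col4a1 higher as well (0.44, adjusted p = 0.0462). With all libraries Col4a2 had a log2 fold change of 0.34 ± 0.18 (adjusted p = 0.158). Col18a1, the source of the fragment endostatin and a collagen that hepatocytes make in normal liver, had 698, 719, 686, 598 and 682 CPM in the HFD libraries, against 591, 504, 377, 444 and 1111 CPM in the LFD libraries. Its highest value was that of LFD replicate 5, the library with the most Alb, and its log2 fold change of 0.16 ± 0.26 (adjusted p = 0.649) was not called. Without LFD replicates 1 and 5 Col18a1 was called higher, at 0.63 (adjusted p = 0.0012), and without replicate 5 alone at 0.52 (adjusted p = 0.00914). Col15a1, its relative in the same family, averaged 23.2 CPM in HFD against 14.6 CPM in LFD and was not called (log2 fold change 0.68 ± 0.36, adjusted p = 0.158).

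Other collagens: 5 of 17 tested rose (29.4%, against 19.4% of all genes) and 1 fell (5.88%, against 21.6%), with a median log2 fold change of 0.30. Col16a1, a collagen that associates with fibrils (chromosome 4, 130047840 to 130099283, plus strand), had 21.6, 26.7, 34.6, 36.0 and 26.4 CPM in the HFD libraries, against 12.6, 8.65, 10.3, 8.64 and 9.93 CPM in the LFD libraries. The groups were far apart, and Col16a1 rose with a log2 fold change of 1.54 ± 0.16 (adjusted p = 0.000214). Col6a3, the long chain of type VI collagen (chromosome 1, 90765923 to 90843971, minus strand), had 627, 624, 680.4, 672 and 716 CPM in the HFD libraries, against 478, 479.6, 464, 559 and 335 CPM in the LFD libraries. It rose with a log2 fold change of 0.52 ± 0.12 (adjusted p = 0.00783), with no overlap of the groups. Col6a1, an abundant type VI chain (chromosome 10, 76708792 to 76726168, minus strand), had 2256, 2124, 2447, 2343 and 2548 CPM in the HFD libraries, against 1875, 2801, 2022, 1847 and 856 CPM in the LFD libraries. LFD replicate 2 held more Col6a1 than any HFD library and LFD replicate 5 the least, and the log2 fold change of 0.32 ± 0.25 (adjusted p = 0.324) was not called. For Col6a2, beside it on the same chromosome, the log2 fold change was 0.27 ± 0.26 (adjusted p = 0.438).

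Col8a1, a network-forming collagen of vessel walls (chromosome 16, 57624258 to 57754737, minus strand), had 80.9, 80.8, 82.0, 86.3 and 80.5 CPM in the HFD libraries, against 56.7, 67.1, 69.4, 74.9 and 55.2 CPM in the LFD libraries. The HFD libraries lay within 6 CPM of each other and above all LFD libraries, and Col8a1 rose by a small step, with a log2 fold change of 0.34 ± 0.09 (adjusted p = 0.0125). With the close HFD pairs summed it missed the threshold (0.35, adjusted p = 0.0631). Of the members under 5 CPM on average, Col17a1, the transmembrane collagen of hemidesmosomes, had 4.79, 3.33, 1.81, 2.26 and 3.81 CPM in the HFD libraries, against 0.0687, 0.104, 0.0545, 0.105 and 0.570 CPM in the LFD libraries. Col17a1 rose with a log2 fold change of 4.26 ± 0.54 (adjusted p = 0.000442) on 36 to 96 counts per HFD library and 1 to 7 per LFD library. Only the HFD libraries carried Col17a1 through the count filter. Col20a1 rose as well (log2 fold change 0.77 ± 0.26, adjusted p = 0.0392), but lost the call when any of 7 single libraries was left out. Col6a4, a further type VI chain, fell with a log2 fold change of -1.97 ± 0.35 (adjusted p = 0.0022) and had 2.09, 1.87, 1.76, 1.56 and 1.27 CPM in the HFD libraries, against 4.39, 10.7, 5.18, 10.1 and 3.01 CPM in the LFD libraries. The 2 groups of Col6a4 values did not overlap. Of the members that, like Col16a1 and Col20a1, associate with fibrils, Col12a1 had a log2 fold change of 0.44 ± 0.30 (adjusted p = 0.254) and Col14a1 of -0.14 ± 0.22 (adjusted p = 0.644), and neither was called. Without LFD replicate 2 Col12a1 was called higher (0.74, adjusted p = 0.0276).

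**Figure D3:**
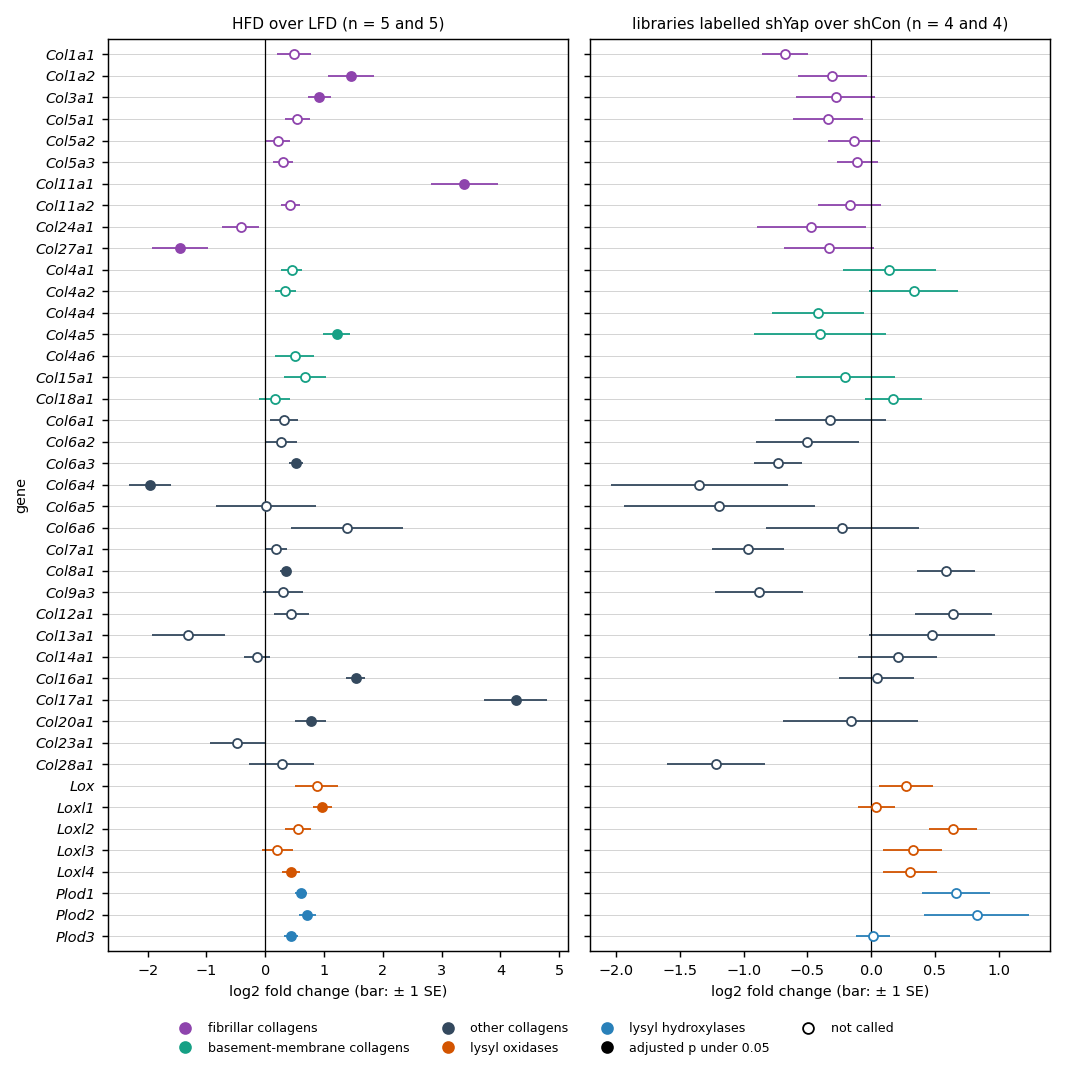
Log2 fold change with ± 1 SE (horizontal axes, which differ in scale) of each tested member (rows), HFD over LFD at left and libraries labelled shYap over shCon at right, with filled points for an adjusted p under 0.05. At left 14 filled points lie above 0 and 2 below, and at right no point is filled.

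Lysyl hydroxylases: all 3 were tested and all 3 rose, against 19.4% of all genes. Plod1, which hydroxylates lysines of the triple helix (chromosome 4, 147909753 to 147936767, minus strand), had 252, 280.5, 294, 270.5 and 276 CPM in the HFD libraries, against 174, 229, 173, 168 and 157 CPM in the LFD libraries. Its log2 fold change was 0.61 ± 0.10 (adjusted p = 0.00172). Plod2, which acts on the chain ends that take part in crosslinks (chromosome 9, 92542223 to 92608428, plus strand), had 78.6, 95.5, 85.7, 103 and 102 CPM in the HFD libraries, against 62.9, 50.01, 75.6, 52.1 and 42.1 CPM in the LFD libraries. Its log2 fold change was 0.72 ± 0.15 (adjusted p = 0.00469). Plod3, which also adds sugars to hydroxylysine (chromosome 5, 136987019 to 136996648, plus strand), had 152, 145, 157, 142 and 165 CPM in the HFD libraries, against 102, 117, 132, 128 and 84.2 CPM in the LFD libraries. Its log2 fold change was 0.44 ± 0.12 (adjusted p = 0.015), and for each of the 3 enzymes every HFD library lay above every LFD library. With the close HFD pairs summed, Plod3 missed the threshold (0.47, adjusted p = 0.0565).

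Lysyl oxidases: 2 of 5 rose (40.0%, against 19.4% of all genes) and none fell (against 21.6%). All 5 log2 fold changes were positive, against 49.8% of all genes. Loxl1, which is needed for elastic fibres (chromosome 9, 58287738 to 58313186, minus strand), had 55.4, 70.8, 52.3, 59.8 and 79.7 CPM in the HFD libraries, against 32.5, 40.9, 35.6, 27.5 and 25.6 CPM in the LFD libraries. Its groups did not overlap, and Loxl1 rose with a log2 fold change of 0.97 ± 0.16 (adjusted p = 0.00129). Loxl4 (chromosome 19, 42593982 to 42612813, minus strand) had 30.8, 29.3, 31.3, 32.2 and 30.5 CPM in the HFD libraries, against 17.2, 30.1, 19.3, 28.1 and 19.4 CPM in the LFD libraries. The HFD values of Loxl4 were tightly grouped but overlapped with LFD replicate 2, and its log2 fold change of 0.43 ± 0.15 (adjusted p = 0.0457) lost the call when any of the HFD libraries, or LFD replicate 1, 3 or 5, was left out. Loxl3 (chromosome 6, 83034173 to 83052562, plus strand) had 55.3, 56.4, 58.6, 57.5 and 66.2 CPM in the HFD libraries, against 46.1, 76.7, 56.4, 54.7 and 21.2 CPM in the LFD libraries. Its groups overlapped and its log2 fold change, 0.20 ± 0.26 (adjusted p = 0.563), was not called and turned to -0.07 without LFD replicates 1 and 5. Lox, the founding enzyme, and Loxl2, which crosslinks type IV collagen, missed the threshold with log2 fold changes of 0.88 ± 0.37 (adjusted p = 0.0798) and 0.56 ± 0.23 (adjusted p = 0.0752). Lox was called higher without HFD replicate 3 (1.05, adjusted p = 0.0451) or LFD replicate 3 (1.09, adjusted p = 0.0489). Loxl2 was called higher with upper-quartile factors (0.64, adjusted p = 0.0341), without LFD replicate 1 (0.68, adjusted p = 0.0477) and without LFD replicates 1 and 5 (0.88, adjusted p = 0.0112). Exons of Loxl3 overlap those of Htra2 on the other strand over 11.6% of their bases, and exons of Plod3 those of Znhit1 over 11.7%. No source used here gives the strand setting of the counts, so reads there cannot be assigned.

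**Figure D4:**
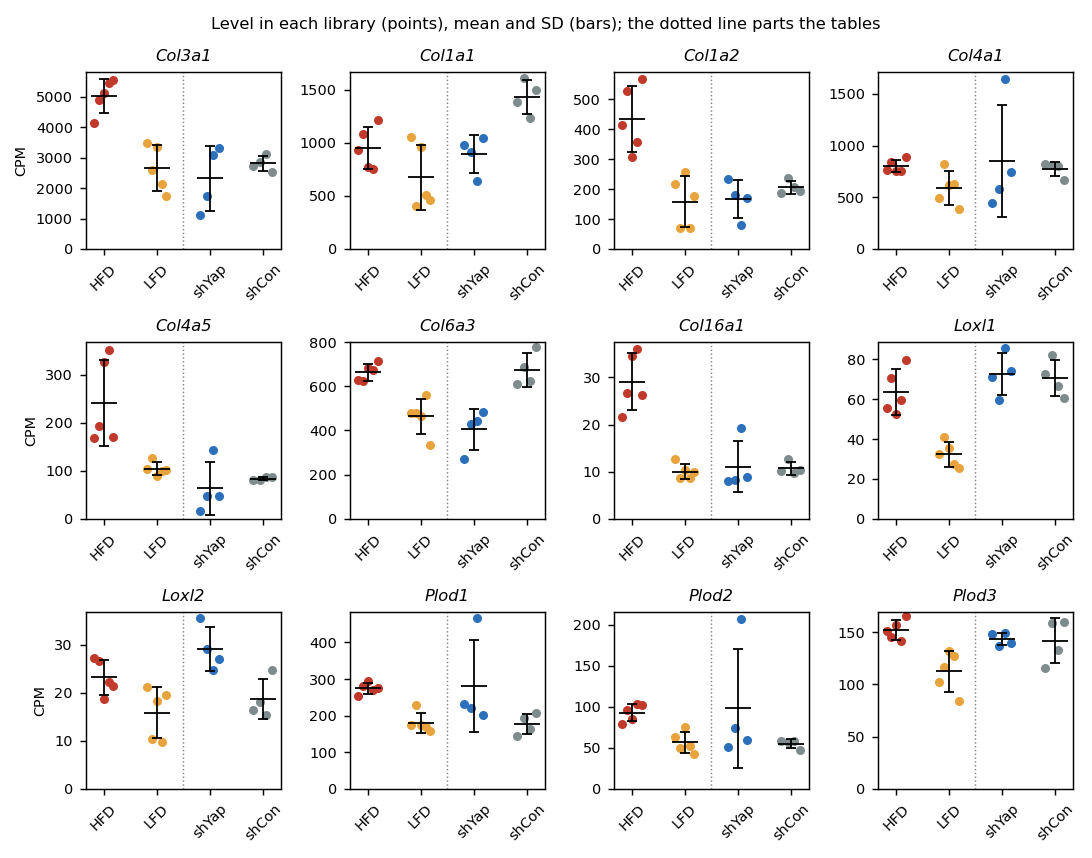
CPM of 12 members (vertical axes, from 0) in each library (points), with the mean and SD of each group (bars) and a dotted line between the separately normalised tables. HFD points lie above all LFD points for Col3a1, Col1a2, Col4a5, Col6a3, Col16a1, Loxl1 and Plod1 to Plod3, and 1 library labelled shYap stands far above the others for Col4a1, Col16a1, Plod1 and Plod2.

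Ratios of chains within a library do not depend on scaling, and are given per kilobase of transcript as a description. Chains of type I collagen stood in a Col1a1 to Col1a2 ratio of 2.03, 1.85, 2.28, 1.90 and 1.93 in the HFD libraries, against 4.38, 5.25, 3.37, 6.48 and 2.34 in the LFD libraries. All HFD ratios lay below all LFD ratios, and they varied less (CV 8.52% in HFD and 36.8% in LFD). The ratio was 3.77, 4.53, 7.09 and 5.55 in libraries labelled shYap, against 6.66, 6.09, 5.40 and 7.01 in shCon libraries, with overlap. Over the libraries of both tables this RNA ratio ranged from 1.85 to 7.09. Col3a1 to Col1a1 averaged 5.85 ± 1.44 in HFD and 4.55 ± 1.36 in LFD (SD, n = 5 each), and 2.95 ± 1.72 in shYap and 2.13 ± 0.41 in shCon (SD, n = 4 each), and both pairs of groups overlapped.

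Over the 4 groups the CV was 1.99% to 7.46% for Col4a1 to Col4a2, which share a start region, 2.73% to 6.07% for Col6a1 to Col6a2, which share a locus, and 5.33% to 22.0% for Col5a1 to Col5a2, from different chromosomes. In shCon the CV of Col5a1 to Col5a2 (5.33%) was below that of Col4a1 to Col4a2 (6.24%). The part of gene position in these CVs was not tested. Col4a1 to Col4a2 stood at 1.57, 1.63, 1.63, 1.59 and 1.56 in HFD libraries, against 1.48, 1.42, 1.49, 1.56 and 1.47 in LFD libraries. Every HFD ratio exceeded every LFD ratio, by a small margin. Under the shYap label this ratio was 1.45, 1.495, 1.51 and 1.28, against 1.62, 1.78, 1.63 and 1.53 in shCon libraries, and all shYap ratios were lower. Col6a1 to Col6a2 averaged 1.02 ± 0.03 in HFD and 0.99 ± 0.04 in LFD with overlap, and it stood at 0.844, 0.824, 0.944 and 0.862 in libraries labelled shYap, against 0.806, 0.779, 0.787 and 0.750 in shCon libraries. There all shYap ratios were higher. Col5a1 to Col5a2 averaged 2.65 ± 0.28 in HFD and 2.12 ± 0.44 in LFD, and 2.82 ± 0.62 in shYap and 3.33 ± 0.18 in shCon, with overlap in both pairs of groups.

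**Figure D5:**
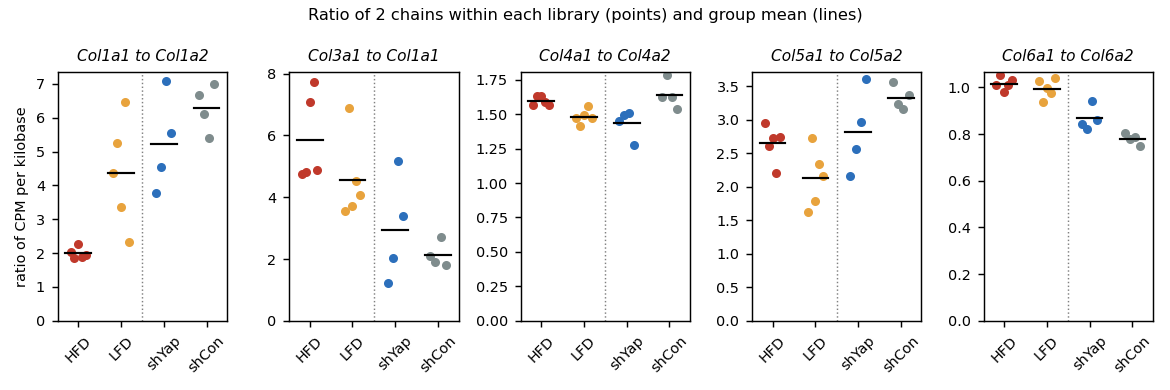
Ratio of the CPM per kilobase of 2 chains (vertical axes, from 0) within each library (points), with group means (lines) and a dotted line between the tables. For Col1a1 to Col1a2 the HFD points lie between 1.85 and 2.28, below all LFD points at 2.34 to 6.48, and the Col4a1 to Col4a2 and Col6a1 to Col6a2 points form narrow bands.

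Genes that process or bind collagen were counted from lists chosen with earlier results known. The counts in HFD stand beside 19.4% of all genes called higher and 21.6% called lower. Of the 23 tested genes for folding and processing, 6 rose and 2 fell in HFD, with a median log2 fold change of 0.07. P3h3 and P3h4, whose products form a complex with that of Plod1 in mouse, rose with log2 fold changes of 1.27 ± 0.10 (adjusted p = 5.7e-05) and 0.97 ± 0.14 (adjusted p = 0.000704). Bmp1, the protease that trims the ends of procollagen, rose with a log2 fold change of 0.44 ± 0.09 (adjusted p = 0.00342), and Mia3, which exports procollagen from the endoplasmic reticulum, fell with a log2 fold change of -0.68 ± 0.16 (adjusted p = 0.00634). Of 14 fibril-associated genes, 9 rose and 1 fell, with a median of 0.86. Among them Dcn, the proteoglycan decorin that coats fibrils, had a log2 fold change of 1.11 ± 0.18 (adjusted p = 0.00149), Thbs2 of 1.02 ± 0.14 (adjusted p = 0.000712), and Fbn1, the fibrillin of microfibrils, of 0.88 ± 0.15 (adjusted p = 0.00161). Kera, a related proteoglycan at a low level, rose as well, at 1.60 CPM in HFD and 0.165 CPM in LFD (log2 fold change 3.29 ± 0.48, adjusted p = 0.000884). Of 8 tested receptors, 1 rose and 2 fell: the collagen-binding integrin Itga10 rose with a log2 fold change of 2.60 ± 0.32 (adjusted p = 0.000394), while Itga1, another integrin of this kind, fell with -0.99 ± 0.16 (adjusted p = 0.00151). Lair1, an inhibitory collagen receptor of leukocytes, fell with -0.70 ± 0.23 (adjusted p = 0.0343), and Ddr1, a receptor kinase, was not called (log2 fold change 0.48 ± 0.22, adjusted p = 0.102).

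Markers of the cell types that could make collagen moved unevenly. Of all genes, 19.4% rose and 21.6% fell in HFD. Of 9 fibroblast markers 3 rose and 1 fell, and their summed level was 416.9 to 522.3 CPM in HFD libraries, against 246 to 488.8 CPM in LFD libraries. Myofibroblast and smooth-muscle markers rose for 3 of 6 (summed 72.5 to 127 CPM in HFD, against 61.3 to 125 CPM in LFD). Hepatic stellate cell markers had 1 fall of 9 (29.4 to 58.3 CPM in HFD, against 43.8 to 123.7 CPM in LFD), and endothelial markers 1 fall of 9 (111 to 162 CPM in HFD, against 123.3 to 244 CPM in LFD). Of 6 tested cholangiocyte markers 2 rose and 1 fell (1165 to 1362 CPM in HFD, against 295.6 to 500.2 CPM in LFD), and of 8 macrophage markers 2 fell (1683 to 1996 CPM in HFD, against 1293 to 2663 CPM in LFD). No marker in these lists was at 0 in all libraries. Without LFD replicates 1 and 5, which held the most Alb, 15 of 42 members rose (35.7%, against 21.1% of all genes in that fit) and 1 fell (2.38%, against 21.8%), and 13 of the 14 rises above were among them. The part of the other cell types was not tested.

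The second comparison asks what a hairpin against Yap did in tumours of high-fat-fed mice. Yap1, the gene it targets, had 71.6, 80.0, 81.4 and 70.5 CPM across the 4 libraries labelled shYap, against 78.1, 82.4, 73.8 and 77.4 CPM in the shCon libraries. The groups overlapped, with means of 75.9 ± 5.62 CPM in shYap and 77.9 ± 3.55 CPM in shCon (SD, n = 4 each), so the RNA did not show the knockdown. Every direction below is that of libraries labelled shYap. Of the 38 members tested, edgeR's quasi-likelihood test called 0 in either direction, and 0 of 16571 genes passed in all (0%). At an unadjusted p under 0.05 there were 3 members higher and 5 lower, which is 21.1% of members, against 10.9% of all genes (4.76% higher and 6.13% lower). DESeq2 called 2 members lower and none higher, among 122 genes higher and 286 lower in all (2.33%). Groups did not overlap for 1 member that was higher and 4 that were lower (13.2%, against 6.57% of all genes, 2.61% higher and 3.96% lower). The other 12 members had at most 30 counts in any library and were not tested.

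Libraries labelled shYap differed widely from each other, and replicate 3 lay farthest from the rest. Over 29 members the SD of its log2 difference to replicates 1, 2 and 4 was 1.25, 0.96 and 0.88. Between the other libraries labelled shYap the SD was 0.50 (1 and 2), 0.45 (2 and 4) and 0.83 (1 and 4). Between shCon libraries it was 0.17 to 0.40. Replicate 1 labelled shYap held the lowest summed level, 6209 CPM. Hepatocyte markers summed to 13890 to 66390 CPM in libraries labelled shYap, against 11560 to 42460 CPM in shCon libraries, with 0 of 15 called. Fibroblast markers summed to 224 to 492 CPM in libraries labelled shYap, against 383.7 to 534.3 CPM in shCon, with 0 of 9 called. At an unadjusted p under 0.05, 1 of these 9 was higher and 3 were lower, against 4.76% and 6.13% of all genes. Their part in the values of the members was not tested.

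Fibrillar collagens had negative log2 fold changes for 9 of 9 tested, none called, with a median of -0.30, against 0.03 over all genes. Of all genes, 53.9% were positive. Col1a1 had 978, 909.6, 637 and 1047 CPM in the libraries labelled shYap, against 1383, 1604, 1230 and 1495 CPM in the shCon libraries. Every value labelled shYap lay below every shCon value, and the log2 fold change was -0.68 ± 0.18 (adjusted p = 0.208), which DESeq2 called lower (-0.67, adjusted p = 0.036). Col3a1 had 1129, 1737, 3086 and 3318 CPM in the libraries labelled shYap, against 2722, 2870, 3133 and 2525 CPM in the shCon libraries. Replicates 3 and 4 labelled shYap were above the shCon mean and replicates 1 and 2 below it, with a log2 fold change of -0.28 ± 0.31 (adjusted p = 0.814), which became -0.05 without replicate 1. The remaining fibrillar members ranged from -0.47 for Col24a1 to -0.11 for Col5a3.

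Basement-membrane collagens were split, with 3 of 6 tested positive and a median log2 fold change of -0.03. Col4a1 had 443, 581, 1646 and 746 CPM in the libraries labelled shYap, against 817, 812, 799 and 666 CPM in the shCon libraries. Replicate 3 labelled shYap was far above the rest, and the log2 fold change of 0.14 ± 0.37 (adjusted p = 0.932) turned to -0.37 without it. Col4a4, the chain with the smallest p in its class, is known from the filtration membrane of the kidney and was close to the limit of detection, with 0.355, 0.353, 0.567 and 0.707 CPM in the libraries labelled shYap, against 0.701, 0.715, 0.555 and 0.678 CPM in the shCon libraries. Its log2 fold change was -0.42 ± 0.36 (adjusted p = 0.746). Col4a5 had 16.8, 48.1, 143 and 46.9 CPM in the libraries labelled shYap, against 80.3, 81.9, 86.5 and 87.5 CPM in the shCon libraries. Its shCon values were tight and 3 of the 4 values labelled shYap lay below them, with a log2 fold change of -0.40 ± 0.52 (adjusted p = 0.847), which became -0.08 without replicate 1 labelled shYap and -1.15 without replicate 3.

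Other collagens had positive log2 fold changes for 5 of 15 tested (33.3%, against 53.9% of all genes), and none was called. Col6a3 had 272, 428, 442 and 483 CPM in the libraries labelled shYap, against 610.2, 686, 622 and 776 CPM in the shCon libraries. The groups did not overlap, and the log2 fold change was -0.73 ± 0.19 (adjusted p = 0.204), which DESeq2 called lower (-0.72, adjusted p = 0.0334). Col6a2 had 540.3, 1096, 2535 and 1903 CPM in the libraries labelled shYap, against 2246, 2323, 2295 and 1734 CPM in the shCon libraries. Replicates 1 and 2 labelled shYap were low and replicate 3 was the highest of all, and the log2 fold change was -0.50 ± 0.40 (adjusted p = 0.726), which became -0.22 without replicate 1 and -0.84 without replicate 3. Col7a1, which forms the anchoring fibrils of epithelium, had 9.53, 15.0, 19.3 and 12.9 CPM in the libraries labelled shYap, against 28.0, 30.1, 37.0 and 15.7 CPM in the shCon libraries. Its log2 fold change of -0.96 ± 0.29 (adjusted p = 0.262) was called when replicate 3 labelled shYap and shCon replicate 4 were left out (-1.34, adjusted p = 0.0115). Col8a1 had 120.2, 83.9, 85.8 and 51.9 CPM in the libraries labelled shYap, against 55.7, 49.6, 56.2 and 66.4 CPM in the shCon libraries, with a log2 fold change of 0.58 ± 0.23 (adjusted p = 0.391). The low members Col28a1 and Col9a3 had no overlap either, with log2 fold changes of -1.21 ± 0.38 (adjusted p = 0.301) and -0.88 ± 0.34 (adjusted p = 0.395).

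Crosslinking enzymes had positive log2 fold changes for all 5 lysyl oxidases and all 3 lysyl hydroxylases, with medians of 0.30 and 0.66, and none was called. Of all genes, 53.9% were positive. Both Loxl1 (0.04) and Plod3 (0.02) were close to 0 and turned negative under some alternatives: Plod3 with upper-quartile factors (-0.01) and without shCon replicate 1 (-0.07) or 3 (-7e-04), and Loxl1 with libraries blocked by the number in their column names (-3e-04), without shYap replicate 3 or shCon replicate 4 (-0.02 each) and without both (-0.11). Loxl2 (chromosome 14, 69609068 to 69695834, plus strand) had 35.5, 29.2, 24.7 and 27.0 CPM in the libraries labelled shYap, against 16.4, 18.1, 15.4 and 24.7 CPM in the shCon libraries. Its lowest value labelled shYap was just above its highest shCon value (24.73 CPM in shYap, 24.7 CPM in shCon), and the log2 fold change was 0.64 ± 0.19 (adjusted p = 0.256). With replicate 3 labelled shYap and shCon replicate 4 left out, Loxl2 was called higher (0.88, adjusted p = 0.0174), in a fit that called 7.54% of all genes. Loxl3 had 61.3, 62.9, 127 and 83.4 CPM in the libraries labelled shYap, against 66.2, 76.7, 60.6 and 63.8 CPM in the shCon libraries, with overlap and a log2 fold change of 0.33 ± 0.23 (adjusted p = 0.681), which became 0.07 without replicate 3 labelled shYap. Plod1 had 231, 222, 468 and 203 CPM in the libraries labelled shYap, against 145, 193, 164 and 206 CPM in the shCon libraries. Replicate 3 labelled shYap was more than 2 times as high as any shCon library, and without it the log2 fold change of 0.66 ± 0.27 (adjusted p = 0.417) became 0.33. Plod2 had 51.3, 74.2, 207 and 60.1 CPM in the libraries labelled shYap, against 58.4, 56.9, 58.6 and 47.2 CPM in the shCon libraries, with the same library on top and a log2 fold change of 0.83 ± 0.41 (adjusted p = 0.534) that became 0.19 without it. Plod3 had the smallest difference of the 3, at 0.02 ± 0.13 (adjusted p = 0.979).

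Processing genes and receptors were not called either, at 0 of 23, 0 of 14 and 0 of 9 tested genes of the 3 lists, with medians of -0.03, 0.10 and 0.06. Creb3l1, a factor known to switch on type I collagen genes, had a log2 fold change of -0.94 ± 0.22 (adjusted p = 0.175), P4hb, a subunit of the proline hydroxylases, 0.53 ± 0.16 (adjusted p = 0.262), and Pcolce, which enhances the trimming by Bmp1, -0.38 ± 0.13 (adjusted p = 0.347). Adamts14, from the same list, had 0.52 ± 0.17 (adjusted p = 0.307). Among fibril-associated genes, Eln, elastin, had -1.39 ± 0.31 (adjusted p = 0.172), and Lum, a fibril-binding proteoglycan, -0.91 ± 0.24 (adjusted p = 0.208). Positive values there were those of Fn1, 0.39 ± 0.23 (adjusted p = 0.607), and Bgn, 0.29 ± 0.18 (adjusted p = 0.633). Lair1 had -0.62 ± 0.18 (adjusted p = 0.262) and Itga10 1.70 ± 0.72 (adjusted p = 0.441). Mrc2 had 0.28 ± 0.21 (adjusted p = 0.7) and Itga1 0.21 ± 0.19 (adjusted p = 0.758). None of these genes was called after adjustment, which does not place each difference within the spread between libraries. Eln was at 10.89 ± 4.54 CPM in shYap, against 28.58 ± 6.67 CPM in shCon (SD). Creb3l1 was at 21.25 ± 6.24 CPM in shYap, against 40.88 ± 6.35 CPM in shCon. Itga10 spread more widely, at 43.54 ± 52.03 CPM in shYap, against 13.38 ± 4.32 CPM in shCon.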

How the data were processed

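RNA of MC38 liver tumours was sequenced in 18 libraries, and the authors deposited estimated counts per gene in 2 tables, made with Partek's expectation-maximisation step per the tables' names. STAR 2.7.3a, Partek and DESeq2, with the builds GRCm38 and mm10, are named per the submitters' processing notes, without role or order. Counting annotation and strand are not given in the sources used here. Starts of all 50 members equalled GENCODE M21, and the deposited ends, 1 base beyond GENCODE in all 50, are given as in GENCODE.

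Expected counts were rounded and each table was fitted alone in R 4.3.3 (edgeR 4.0.16, genes kept by filterByExpr, TMM, robust quasi-likelihood F test, Benjamini-Hochberg adjusted p under 0.05, no covariate). CPM use the TMM-scaled total, and the SE is the log2 fold change over the square root of F. Levels per kilobase use the APPRIS principal transcript. Depth limits members under 1 CPM, and PCR copies were not marked. In simulated counts for the HFD and LFD design 74 of 100 genes changed 2-fold were called, and 52 of 100 for shYap and shCon (16340 and 16571 genes).

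Members, lists and tests were chosen with earlier results of these data known. Named with every library's value were called members of at least 5 CPM (at most 6 a class), the highest member of each class, and the smallest p where none was called. Up to 4 genes a pathway list were named with their log2 fold changes. Other genes given with values (Col11a1, Col17a1, Col20a1, Col6a4, Col18a1, Col7a1, Col28a1, Plod2 in shYap and others), with Alb and Xist, were chosen after their values were seen. Replicate numbers did not pair the libraries. Alternatives were RLE and upper-quartile factors, DESeq2 1.42.0, other filters, replicate blocks, single libraries left out and close HFD pairs summed. The close HFD sets summed, and leaving out LFD replicates 1 and 5, or shYap replicate 3 with shCon replicate 4, were added after seeing the data.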

Additional observations from a re-analysis of the deposited data

Results flagged for a closer look

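Of 96 groups of values checked for a single library far from its others, 11 stood out, and chance gives about 1 in 20. Among libraries labelled shYap, replicate 3 held the highest Plod1 (467.5 CPM, next 230.7), Plod2 (206.7 CPM, next 74.2) and Col16a1 (19.2 CPM, next 8.81). In shCon the lowest library stood apart for Col4a1 (665.8 CPM, next 798.8), Col6a1 (1350 CPM, next 1874), Col6a2 (1734 CPM, next 2246) and Plod2 (47.2 CPM, next 56.9), which was replicate 4 each time, and the highest for Col16a1 (12.7 CPM, next 10.3, replicate 2). In LFD, replicate 2 was highest for Plod1 (229 CPM, next 174) and replicate 1 for Col4a4 (1.78 CPM, next 0.708). In HFD, replicate 4 was highest for Col8a1 (86.3 CPM, next 82.0).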

How the results depend on the processing

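In HFD against LFD the number of members higher, 14, became 5 and the number lower 0 with the close HFD sets summed, which leaves 2 HFD values and called 6.02% of all genes, against 41.1%. Under the other alternatives 10 to 18 were higher, lowest with the close HFD pairs summed (23.8%, against 12.1% of all genes in that fit). The number lower, 2, became 6 in DESeq2 and 5 with no filter, through members too low for the edgeR filter, and 1 with the replicate block, with the close HFD pairs summed and with both LFD libraries richest in Alb left out, each time through the loss of Col27a1. Leaving out single libraries gave 12 to 18 higher and 1 to 2 lower, and Col27a1 lost its call without HFD replicate 1, 3, 4 or 5 or LFD replicate 1 or 5. In shYap against shCon the counts of 0 became 2 lower in DESeq2, in a fit that called 2.33% of all genes. With the farthest library of each group left out they became 1 higher and 2 lower, where 7.54% of all genes were called. They were 0 under every other scaling, filter, block and single library left out. The replicate block, whose numbers did not pair the libraries (correlations of deviations -0.5 to 0.315 and -0.052 to 0.182), gave 13 higher and 1 lower in HFD and 0 and 0 in shYap. Counts given here without the share of all genes describe the fits, and are not read as results about the members.

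Some log2 fold changes turned over, and the cause was not tested. Loxl3 in HFD became -0.0726 without both LFD libraries richest in Alb. In shYap, Plod3 became -0.0135 with upper-quartile factors, -0.0722 without shCon replicate 1 and -7e-04 without shCon replicate 3. With the replicate block, the column-number block, replicate 3 labelled shYap left out and the farthest libraries left out, Col4a1 became -0.0447, -0.0418, -0.3664 and -0.4535, and Col16a1 -0.0566, -0.0245, -0.3373 and -0.3802. Loxl1 became -3e-04 with the column-number block, -0.0241 without shYap replicate 3, -0.0228 without shCon replicate 4 and -0.1115 with the farthest libraries left out. Without 1 library, Col4a1 ranged from -0.3664 to 0.3591, Col16a1 from -0.3373 to 0.1719, Loxl1 from -0.0241 to 0.1401 and Plod3 from -0.0722 to 0.0912. Members under 1 CPM are limited by depth.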

Other observations

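Among collagens known from cartilage, Col2a1, Col9a2 and Col10a1 were at the limit of detection in these tumours, whereas Col27a1 and Col11a2 were measured (Col11a2 at 12.2 CPM in HFD and 9.05 CPM in LFD). Between them stood Col11a1, at 3.13 CPM in HFD and 0.283 CPM in LFD, and Col9a3, at 1.05 CPM in HFD and 0.83 CPM in LFD. Col2a1, the main fibrillar chain of cartilage, averaged 0.111 CPM in HFD and 0.0514 CPM in LFD, and 0.0679 CPM in shYap and 0.0604 CPM in shCon. Col10a1, a product of hypertrophic cartilage, averaged 0.131 CPM in HFD and 0.0911 CPM in LFD, and Col9a2 0.0891 CPM in HFD and 0.0218 CPM in LFD. Of the type IV chains that build the kidney filter, Col4a5 was the abundant one, as given above, and the other two were low: Col4a3 averaged 0.159 CPM in HFD and 0.443 CPM in LFD, and Col4a4 0.260 CPM in HFD and 0.736 CPM in LFD.

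Few genes made up most of the collagen RNA. The 4 members of highest mean share took 65.4% ± 1.49 of the summed CPM in HFD and 63.2% ± 2.0 in LFD (SD, n = 5 each), and 56.6% ± 5.49 in shYap and 64.1% ± 1.89 in shCon (SD, n = 4 each). They were Col3a1, Col6a1, Col6a2 and Col1a1 in HFD, shYap and shCon, and in LFD Col18a1 stood in place of Col1a1. The LFD shares of these last genes overlapped, with 6.25% ± 4.99 for Col18a1 and 6.15% ± 2.27 for Col1a1. Col18a1 took 15.1% in LFD replicate 5, the library with the most Alb. By mean CPM in LFD, Col1a1 was the higher of them (675 ± 305.7 CPM, against 605.6 ± 293.5 CPM for Col18a1). Col6a3 took 4.12% ± 0.13 of the summed CPM in HFD and 4.29% ± 0.77 in LFD, so the share of this called gene within the set overlapped between the diets.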
